A study of Rattus norvegicus with 12 samples.

Results

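VIPR1 encodes the vasoactive intestinal peptide receptor 1, also called VPAC1. It was measured here as the row ENSG00000114812, 1 gene of the 20263 in the full tables. The gene was chosen because its level fell most among a few genes singled out from these same libraries, so its levels and differences are a description and carry no test. VIPR1 was at 15.3 ± 0.643 CPM (SD, n = 3) in high glucose alone. In separate groups it was at 2.78 ± 0.15 CPM in high glucose with resveratrol, and at 0.687 ± 0.278 CPM with resveratrol and a sirtuin inhibitor. CPM is the number of reads of a gene after each library is scaled to the same total. Of the high-glucose level, 18.2% was left with resveratrol and 4.5% with both compounds.

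The receptor sits in the plasma membrane and belongs to the class B family of G protein-coupled receptors, together with the receptors for secretin, glucagon and parathyroid hormone. It binds the neuropeptides VIP and PACAP with similar affinity, and it couples mainly to the stimulatory G protein, which activates adenylyl cyclase and raises cyclic AMP. VIP is known in the heart as a transmitter of intrinsic nerves that dilates coronary vessels and strengthens contraction. Its relative VIPR2 binds the same peptides. Sirtuins are enzymes that remove acyl groups from proteins and consume NAD, and the plant compound resveratrol is commonly applied to activate them.

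All 12 libraries are labelled as wild-type H9C2 cardiomyocytes; H9C2 is a cell line from the heart of an embryonic rat. Cells of the HG group grew in 100 mM glucose without drug. Those of HG-Res received 5 µM resveratrol in the same medium. The HG-Res-SIRT7-Inh group, called the inhibitor group from here on, received 5 µM resveratrol in 100 mM glucose and in addition 5 µM SirReal2. The labels present SirReal2 as specific for SIRT7, although suppliers commonly list it against SIRT2. Each group had 3 biological replicates and was held for 48 h. No group received the inhibitor without resveratrol and no vehicle is described, so the step to the inhibitor was measured only in cells that also had resveratrol. The fourth group, Ctrl, was kept in 5.5 mM glucose.

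The identifier carries Ensembl's prefix for human genes, as do all 20263 identifiers, while rat is the labelled organism and rn6 the build in the submitters' processing notes. In the rat gene table of assembly GRCr8 a match was found for 0 of them. That count follows from the human prefix and says nothing about the source of the reads. The files used here carry no gene names. VIPR1 is the name given for this identifier in the choice of the gene, and whether its reads come from a rat or a human gene was not tested. For the same reason no coordinate or sequence is given, and the labelled cell type was not checked against its markers. The ligands VIP and PACAP, VIPR2, the other class B receptors, the adenylyl cyclases, the phosphodiesterases and the CREB targets were not analysed here.

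Depth recovered from the values was 30.29 to 33.17 M reads in the 9 high-glucose libraries, so that 1 read was worth 0.03 to 0.033 CPM. Libraries of a group differed in closeness. The chi-square per gene between the reads of a pair, which is near 1 for counting error alone, was 5.26 to 9.33 in HG-Res. It was 9.07 between HG replicates 1 and 3 but 39.8 and 70.7 for the pairs with replicate 2, and 24.4 between inhibitor-group replicates 1 and 2 but 173 and 93.4 for the pairs with replicate 3. Replicate 2 of HG and replicate 3 of the inhibitor group thus stood apart from the others of their groups, and the VIPR1 values are also given without them.

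In HG, VIPR1 was at 14.68, 15.95 and 15.14 CPM in replicates 1, 2 and 3, from 467, 529 and 471 reads. In HG-Res it was at 2.74, 2.66 and 2.95 CPM, from 86, 84 and 94 reads. In the inhibitor group it was at 0.94, 0.39 and 0.73 CPM, from 30, 12 and 22 reads. The order of the groups was HG, HG-Res, the inhibitor group from high to low, and no library of a group overlapped any library of the next. The background was taken from the 12854 genes tested, which reached 0.5 CPM in 3 or more of the 9 libraries. In this set every library of HG-Res lay below every HG library in 14.8%, every library of the inhibitor group below every HG-Res library in 16%, and every library of the inhibitor group below every HG library in 15.3%. The lack of overlap is thus common in these tables, and the gene was chosen for its fall. In bulk RNA, fewer cells carrying the transcript and less transcript per cell cannot be told apart.

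**Figure D1:**
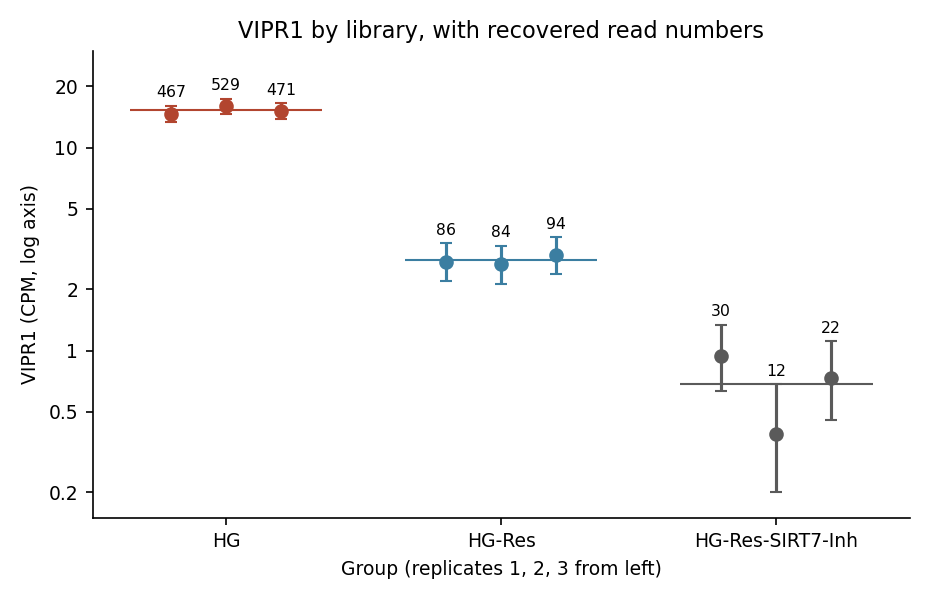
VIPR1 in CPM (log axis) in each of the 9 high-glucose libraries, with the number of recovered reads above each dot. Horizontal lines are group means and vertical bars exact 95% Poisson intervals, which cover counting error only; the HG-Res libraries lie between 2.66 and 2.95 CPM, below all HG libraries and above all inhibitor-group libraries.

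With resveratrol the mean was 5.48-fold lower than in HG, and single libraries of both groups differed by 4.98-fold to 6-fold. With the inhibitor added the mean was 4.05-fold lower again, with single libraries 2.83-fold to 7.56-fold apart. Between HG and the inhibitor group the means were 22.2-fold apart, with single libraries between 15.6-fold and 40.9-fold. The widest of these ranges are those that involve the inhibitor group, which held 12 to 30 VIPR1 reads per library.

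How the fall divides between the steps depended on the scale. In CPM, 12.5 were lost with resveratrol and 2.1 with the inhibitor, so 85.6% of the total loss came in the first step. On the log2 scale of the means the steps were -2.45 and -2.02, and the first took 54.9%. On the log2(CPM + 1) scale used for fits across genes, where the added 1 CPM compresses low levels, the steps were -2.10 ± 0.13 and -1.18 ± 0.13 (SE), and the first took 64.1%. This SE comes from 1 fit over the 3 groups, with the spread shared between groups and drawn toward that of other genes. It is not the spread of the compared groups alone. The authors' deposited tables gave log2 fold changes of -2.44, -2.05 and -4.48 for HG-Res against HG, the inhibitor group against HG-Res and the inhibitor group against HG. Without both libraries that stood apart the log2(CPM + 1) differences were -2.07, -1.20 and -3.28, beside -2.10, -1.18 and -3.28 with all libraries.

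Replicates of VIPR1 lay close together in HG and HG-Res and less so in the inhibitor group. The coefficient of variation was 4.21% in HG, where counting error alone gives 4.52%, and 5.38% in HG-Res, where it gives 10.7%. In the inhibitor group it was 40.4%, against 21.7% from counting. Replicate 1 of that group, with 30 reads, had a 95% exact Poisson interval of 20.2 to 42.8 reads, and replicate 2, with 12 reads, of 6.2 to 21, so the intervals of the highest and the lowest library met. The upper bound of 42.8 reads in the highest inhibitor-group library lay below the lower bound of 67 reads in the lowest HG-Res library. These intervals cover counting error only. On the log2(CPM + 1) scale the SD of VIPR1 was 0.06 in HG and 0.06 in HG-Res, beside medians of 0.13 and 0.11 for genes within 2-fold of its read level in the same group. It was 0.24 in the inhibitor group, beside a median of 0.17.

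VIPR1 was then set beside the genes with a similar number of reads in HG, those with a mean between 7.63 and 30.5 CPM, within 2-fold of VIPR1. There were 3778 of these including VIPR1. CPM is not scaled by gene length, so a similar read level gives similar precision and says nothing about similar transcript abundance. Between HG-Res and HG the median difference of the others was -0.004 on the log2(CPM + 1) scale, and 5% of them were below -0.32 and 5% above 0.31. VIPR1, at -2.10, had the lowest difference of these 3778 genes and of all 12854 tested. Of the others, 11 had a mean at least 2-fold lower in HG-Res (0.291%), beside 0.342% of all genes tested. At least 4-fold lower were 0 of them, or 1 without HG-Res replicate 3, beside 0.0156% of all genes tested (2 genes, VIPR1 included). The largest fall among the others was 3.81-fold, beside 5.48-fold for VIPR1.

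The second step did not set VIPR1 as far apart. Between the inhibitor group and HG-Res its difference of -1.18 was the 23rd lowest of the 3778 genes and the 77th lowest of all 12854. Its place among the 3778 was 40 without inhibitor-group replicate 2, the library with the lowest VIPR1 value. By the fold between means, 4.05, it was at place 11. The median difference of the others was 0.08, with 1% of them below -1.02. Of the others, 53 were at least 2-fold lower (1.4%, beside 2.12% of all genes) and 11 at least 4-fold lower (0.291%, beside 0.568%), and the largest fall was 11.9-fold.

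Because VIPR1 was at 2.78 CPM in HG-Res, it was also compared with the 1815 genes within 2-fold of that HG-Res level. This comparison was chosen after the data were seen. By the fold between means it took place 19, and between places 14 and 21 when any single HG-Res or inhibitor-group library was left out. The median fold of the other genes was 0.93, that is, slightly higher with the inhibitor. Of these, 66 were at least 2-fold lower (3.64%, beside 2.12% of all genes) and 18 at least 4-fold lower (0.992%, beside 0.568%), and the largest fall was 38.3-fold, beside 4.05-fold for VIPR1.

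Over both steps, from HG to the inhibitor group, VIPR1 had the lowest log2(CPM + 1) difference of the 3778 genes and of all 12854, at -3.28. The median of the others was 0.07, with 1% below -1.08. Of the others, 62 were at least 2-fold lower (1.64%, beside 2.22% of all genes) and 11 at least 4-fold lower (0.291%, beside 0.467%), with a largest fall of 17.3-fold beside 22.2-fold for VIPR1. By the ratio of means over all 12854 genes it took place 5. Of the 4 genes before it, 3 were listed at 0 in every inhibitor-group library, from 0.393 to 2.02 CPM in HG, and the other went from 1.08 to 0.0433 CPM. None of these 4 began near the HG level of VIPR1.

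**Figure D2:**
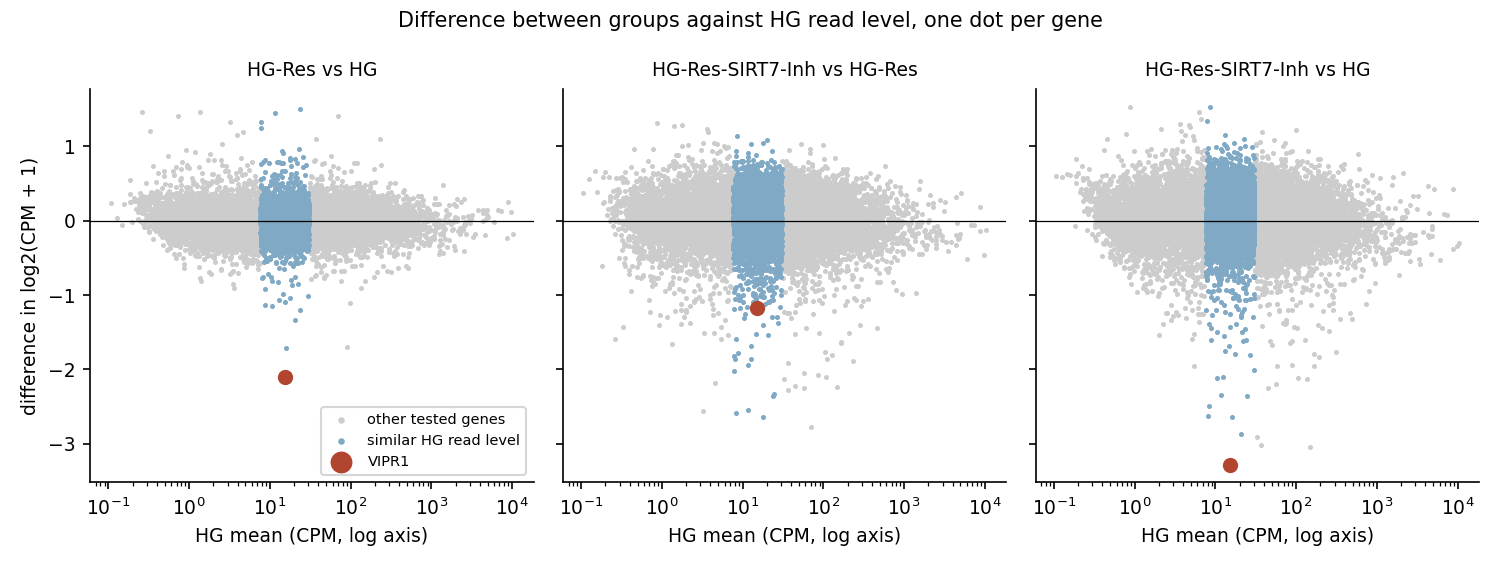
Difference in log2(CPM + 1) between groups (vertical axis) against the mean CPM in HG (log axis) for each of the 12854 genes tested, in the 3 comparisons. Blue dots are genes within 2-fold of the HG read level of VIPR1, and the red dot is VIPR1, at -2.10, -1.18 and -3.28 from left to right; it is the lowest point in the left and right panels and lies among other lowered genes in the middle panel.

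The final level was also taken as the starting point. In the inhibitor group 1122 genes lay within 2-fold of 0.687 CPM, VIPR1 included. The others had a median of 0.777 CPM in HG, and 1% of them were above 2.99 CPM. The highest of these was at 8.41 CPM in HG, below the 15.3 CPM of VIPR1. This comparison was not among those planned. It restates the fall for which VIPR1 was chosen and is a description only.

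The genes nearest to VIPR1 in total fall at its HG read level divided that fall between the groups in several ways. They were placed by the log2(CPM + 1) difference; by the fold between means the order was another, and the gene at place 3 was the nearest to VIPR1. The nearest went from 20.8 ± 2.4 through 7.62 ± 0.469 to 1.96 ± 0.101 CPM, a total of 10.6-fold, with 42.4% in the first step. ENSG00000169429, the second nearest, was at 16 ± 0.684 CPM in HG, 4.19 ± 0.75 in HG-Res and 1.79 ± 0.724 in the inhibitor group (SD, n = 3), a total of 8.95-fold. Of its fall on the log2 scale of the means, 61.1% came in the first step, beside 54.9% for VIPR1. The third went from 8.14 ± 1.41 through 4.4 ± 1.04 to 0.47 ± 0.0656 CPM, 17.3-fold in all and 21.5% in the first step. The fourth and the fifth differed little between HG-Res and HG, at 9.16 ± 1.86 beside 8.41 ± 1.01 CPM and at 24 ± 2.71 beside 24.5 ± 1.83 CPM, differences smaller than the SD between replicates. They ended at 0.77 ± 0.674 and 4.12 ± 1.53 CPM. Of the 6 genes, VIPR1 was thus the lowest in HG-Res and the second lowest, after the third of the others, in the inhibitor group, where its SD overlapped those of the third and the fourth.

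**Figure D3:**
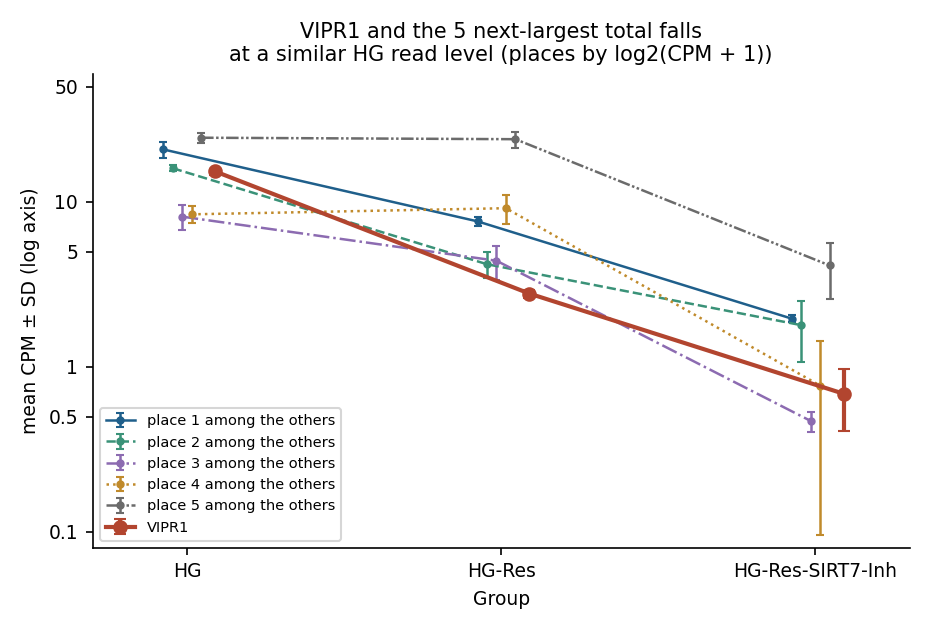
Mean CPM ± SD (log axis, n = 3) in the 3 high-glucose groups for VIPR1 and the 5 other genes of similar HG read level with the largest total fall on the log2(CPM + 1) scale, which sets the places; by the plotted means the folds are 10.6, 8.95, 17.3, 10.9 and 5.94 for places 1 to 5. VIPR1 goes from 15.3 through 2.78 to 0.687 CPM, while the genes at places 4 and 5 are at 9.16 and 24 CPM in HG-Res, beside 8.41 and 24.5 CPM in HG.

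The genes whose pattern was most like that of VIPR1 were found by Pearson's r over the 9 libraries on the log2(CPM + 1) scale. These r values are a description: the 9 points are 3 groups that share libraries and depth, so any gene with clearly separate groups in the same order comes out high. Of 12853 genes compared, 284 had an r of at least 0.9, while 102 were at -0.9 or below. The highest 10 had r between 0.984 and 0.993, and 7 of these were within 2-fold of the HG read level of VIPR1. By Spearman's rho the choice was another: of the 11 genes at 0.98 or above, 0 were among these 10. ENSG00000091986 had the highest r, 0.993. It was at 38.51, 41.07 and 40.57 CPM in HG, 25.96, 26.62 and 26.45 in HG-Res, and 20.79, 19.52 and 18.69 in the inhibitor group. Its groups did not overlap either, but its total fall was 2.04-fold, beside 22.2-fold for VIPR1.

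Pearson's r takes no account of the size of a fall. VIPR1 had the lowest log2(CPM + 1) difference of all genes tested in the first step and in total. The 10 genes therefore had to fall less on that scale, and their falls are given as a description. The total falls of the 10 genes ran from 1.53-fold to 8.95-fold with a median of 2.31-fold. The largest was that of ENSG00000169429, which had r = 0.987 and was at 16.07, 15.26 and 16.62 CPM in HG, 3.85, 3.67 and 5.05 in HG-Res, and 1.5, 1.25 and 2.61 in the inhibitor group. It was the gene closest to VIPR1 in both the first step (3.81-fold beside 5.48-fold) and the second (2.35-fold beside 4.05-fold) among the 10. In ENSG00000169429 inhibitor-group replicate 2 was the lowest library of its group, as in VIPR1 and in some others of the 10. In the rest of the 10, ENSG00000091986 with the highest r included, replicate 3 was the lowest. Within HG the order differed: replicate 2 was the lowest library of ENSG00000169429, at 15.26 CPM, but the highest of VIPR1, at 15.95 CPM.

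**Figure D4:**
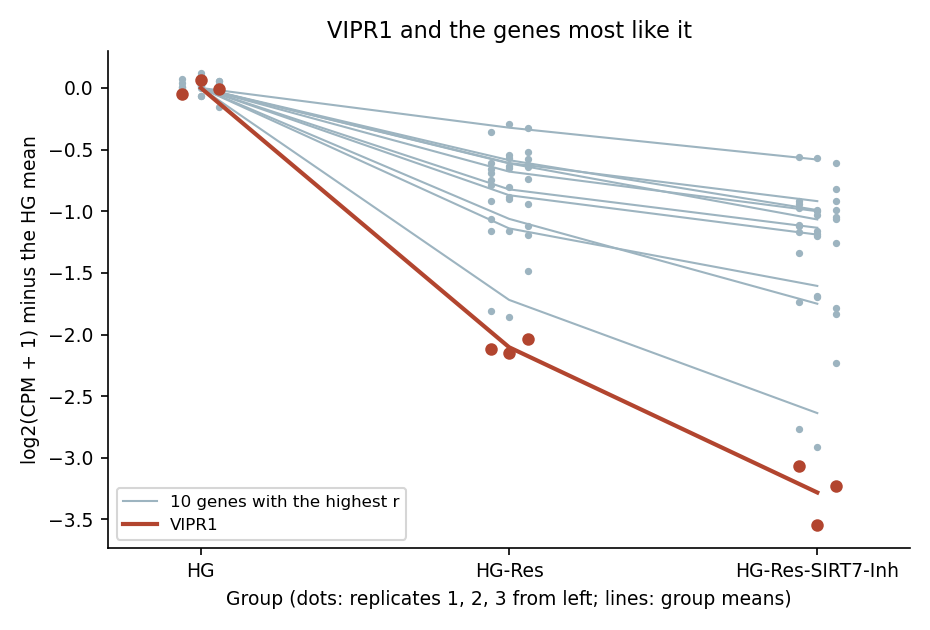
Level of VIPR1 (red) and of the 10 genes with the highest r to it (grey), as log2(CPM + 1) minus the mean of the HG libraries. Dots are libraries and lines join group means. VIPR1 reaches -2.10 in HG-Res and -3.28 in the inhibitor group. It lies below all 10 genes in both groups, as it had the lowest of these differences among all genes tested.

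For the background of these differences, limma with Benjamini-Hochberg adjustment at 0.05 was run over all 12854 genes, and VIPR1 is given no p-value because it was chosen on these differences. Between HG-Res and HG it called 91 genes (0.708%), between the inhibitor group and HG-Res 780 (6.07%), and between the inhibitor group and HG 1385 (10.8%). Genes called lower made up 0.381%, 4.19% and 6.5% of those tested. Among the 3778 genes at the HG read level of VIPR1 the shares called lower were 0.556%, 4.58% and 6.83%. The counts of calls moved by over 1.5 times with the libraries used, from 19 (without HG-Res replicate 2) to 801 (without inhibitor-group replicate 3), from 276 (without HG-Res replicate 1) to 1778 (without inhibitor-group replicate 1), and from 549 (without HG replicate 1) to 2717 (without inhibitor-group replicate 3). The authors' deposited tables mark VIPR1 as down in all 3 comparisons, a mark carried by 0.883%, 3.69% and 3.83% of their 20263 genes. The mark rests on an unadjusted p-value under 0.05 and a fold change over 1.5. It comes from the same libraries for whose fall VIPR1 was chosen, so it is a description and no separate support.

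The level of VIPR1 in normal glucose was not analysed here. The table of HG against Ctrl used here lists 354 genes, each with an unadjusted p-value under 0.05 and a fold change over 1.5 in the authors' deposited table, and VIPR1 is not among these. Whether 100 mM glucose had itself changed VIPR1, and whether the compounds moved it toward or away from its Ctrl level, was therefore not tested.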

How the data were processed

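RNA from 12 libraries (4 groups of 3) was sequenced after oligo(dT) selection, per the labels' protocols. Trimmomatic and build rn6 are named in the submitters' processing notes. Which aligner, counter, annotation and test the authors used is not given in the sources used here. The deposited value columns are headed TPM but hold CPM: within the rounding of 0.005, 100% of the values below 300 CPM in each of the 9 high-glucose libraries were whole multiples of 1 step. At a median wrong step the share was 37.2% to 42.6%, taken over the values below 3 CPM only. The reads so recovered served depth, description and 1 added alternative (voom), not the main test. The authors' log2 fold change, p-value and q-value columns were taken as deposited.

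Genes that reached 0.5 CPM in 3 or more of the 9 libraries were fitted as log2(CPM + 1) with limma 3.58.1 in R 4.3.3 (group means, 1 fit over the 3 groups, intensity trend, Benjamini-Hochberg). The fit was tested on simulated data. The simulation gave every library the same spread and held no library that stood apart, unlike the deposited data. In the deposited data no pair of replicates agreed within counting error. P-values measure the spread between libraries labelled as biological replicates. VIPR1, the lists and the settings were chosen with earlier results of these data known. Named genes were to be the 10 with the highest r to VIPR1, the 5 nearest in total fall and members of pathway lists; without names for the identifiers the lists were dropped and 2 other identifiers are printed. Alternatives were the pseudocount, the filter, median-of-ratios scaling, the replicate number as a block, 2 groups alone, the authors' values, another window and leaving out each library; voom and the removal of both deviating libraries were added later.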

Additional observations from a re-analysis of the deposited data

How the results depend on the processing

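VIPR1 was lower in each comparison with the other pseudocount, with median-of-ratios scaling, in the authors' values and without any 1 library or both libraries that stood apart; its difference was not recomputed under the other alternatives. Its log2 differences between HG-Res and HG, the inhibitor group and HG-Res, and the inhibitor group and HG (-2.10, -1.18 and -3.28) were -2.41, -1.94 and -4.35 with a pseudocount of 0.1, and -2.44, -2.05 and -4.48 in the authors' deposited tables; a smaller pseudocount compresses low levels less. Leaving out any 1 library gave -2.13 to -2.07, -1.29 to -1.05 and -3.39 to -3.15. Under the alternatives 24 such values moved by less than the SD between replicates and 6 by more. Its place among genes of similar HG read level stayed at 1 for the first and last comparison. For the second, 23, it was 13 with a pseudocount of 0.1, 11 with a window of 1.5-fold (fewer genes) and 21 to 40 without any 1 library. None of the 10 genes most like VIPR1 by Pearson's r, 0 of 10, was among the 11 with the highest Spearman's rho, so the choice of these genes rests on the measure.

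The genes called (91, 780 and 1385) were 45 in the first comparison under a replicate block, 596, 414 and 420 with 2 groups alone, 1089 in the first by the authors' q-values, and 2722, 2412 and 3991 without the 2 libraries that stood apart; the cause was not tested. Voom on the recovered reads called 84, 745 and 1374. Leaving out any 1 library gave 19 to 801, 276 to 1778 and 549 to 2717. Deviations of same-numbered libraries correlated at -0.55 to 0.64. Libraries of unlike number were not set beside these, so whether the replicate numbers pair the libraries was not settled. The 12 to 30 reads of VIPR1 in the inhibitor group limit the precision of its last level.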
